A study of Mus musculus with 42 samples.

Results

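The lungs of mice given the low dose of benzo(k)fluoranthene (BkF) were compared with the lungs of vehicle-treated mice. BkF is a polycyclic aromatic hydrocarbon, one of the fused-ring compounds formed when organic matter burns incompletely. The comparison used the 3 lung arrays labelled D1 (25 mg/kg-bw/day) and the 4 lung arrays labelled D0 (olive oil, 0 mg/kg-bw/day), which are 7 of the 42 arrays in the series. These arrays were chosen by their labels and not by any measured value. The lungs of the medium-dose mice (D2, 50 mg/kg-bw/day, 4 arrays) and of the high-dose mice (D3, 100 mg/kg-bw/day, 4 arrays) were used to share the estimate of the spread and to place the low dose among the doses. Medium-dose mouse 12 stood apart: its array correlated with the other lung arrays at 0.77 to 0.85, and its mean log2 ratio over the skeletal muscle markers was 4.65, against −0.90 to −0.40 in the other lungs. It enters the shared spread and the medium-dose means below. All mice were adult males of the MutaMouse strain, aged about 11 weeks, which carry a lacZ transgene for mutation assays in every group, vehicle included. They were dosed by gavage on each of 28 days, and tissue was taken 72 hours after the last dose. RNA came from random sections of frozen lung (the right lobe, per the published methods), so the mix of airway, vessel and alveolar tissue can differ from mouse to mouse. The published methods also state that several mice of this experiment died of lung puncture during gavage, so groups are smaller than planned and the low-dose group held 3 mice.

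On each 2-colour array, the lung RNA (Cy5) was hybridised together with a reference RNA pooled from mouse cell lines (Cy3). Values below are log2 ratios of lung over reference, and a change is the difference of 2 group means of log2 ratios, low dose minus vehicle. Among the vehicle and low-dose arrays, between 41.8% and 59.9% of probes were well above background in the lung channel, and the array-to-array correlation of log2 ratios ranged from 0.94 to 0.97. All 12 alveolar type II markers (surfactant genes such as Sftpc, among others) and all 9 tested alveolar type I markers were well above background on every array of both groups. The arrays of vehicle mouse 4 and low-dose mouse 9 shared a slide and were the dimmest of the 7. Each dose held the same position on every slide, so dose and position on the slide cannot be told apart. The number of arrays limits the precision: a complete separation of 3 values from 4 gives an exact permutation p (two-sided) of 0.057, the smallest that this design allows.

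The aryl hydrocarbon receptor (AhR) is a cytosolic receptor that planar polycyclic aromatic hydrocarbons bind. Once bound, it moves to the nucleus, pairs with its partner Arnt and binds a short DNA element whose core reads GCGTG. The genes it turns on include cytochromes P450 of family 1, which oxidise polycyclic aromatic hydrocarbons, conjugating enzymes that make the products soluble, and the repressor Ahrr, which limits the receptor. Cyp1a1 is the classical readout of this pathway in lung, where it can be induced in endothelial and epithelial cells.

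No probe passed the threshold at the low dose. Of the 32694 probes tested, 0 (0%) had a limma Benjamini-Hochberg adjusted p of at most 0.05 together with a change of at least 1.5-fold, and the lowest adjusted p was 0.52, shared by Ahrr (higher) and Grp (lower). At an unadjusted limma p under 0.05, 223 probes (0.682%) were higher and 354 (1.08%) were lower, in all 577 probes or 1.76% of those tested. All 3 low-dose values lay above all 4 vehicle values for 564 probes (1.73%) and below them for 769 probes (2.35%). Requiring 1.5-fold as well as an unadjusted p under 0.05 left 96 probes, 48 in each direction; with the scanner software's own log ratios the higher ones were 34.2% of such probes in place of 50%. Without vehicle mouse 4 there were 190 such probes, without low-dose mouse 9 there were 158, and without medium-dose mouse 12 there were 128. Median centring of each array in place of loess moved the median change of all probes from −0.01 to −0.09, so list counts are also given under it where they turn. The genes below are therefore described by their values in each mouse, with unadjusted p-values from limma, and none of them is called.

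**Figure D1:**
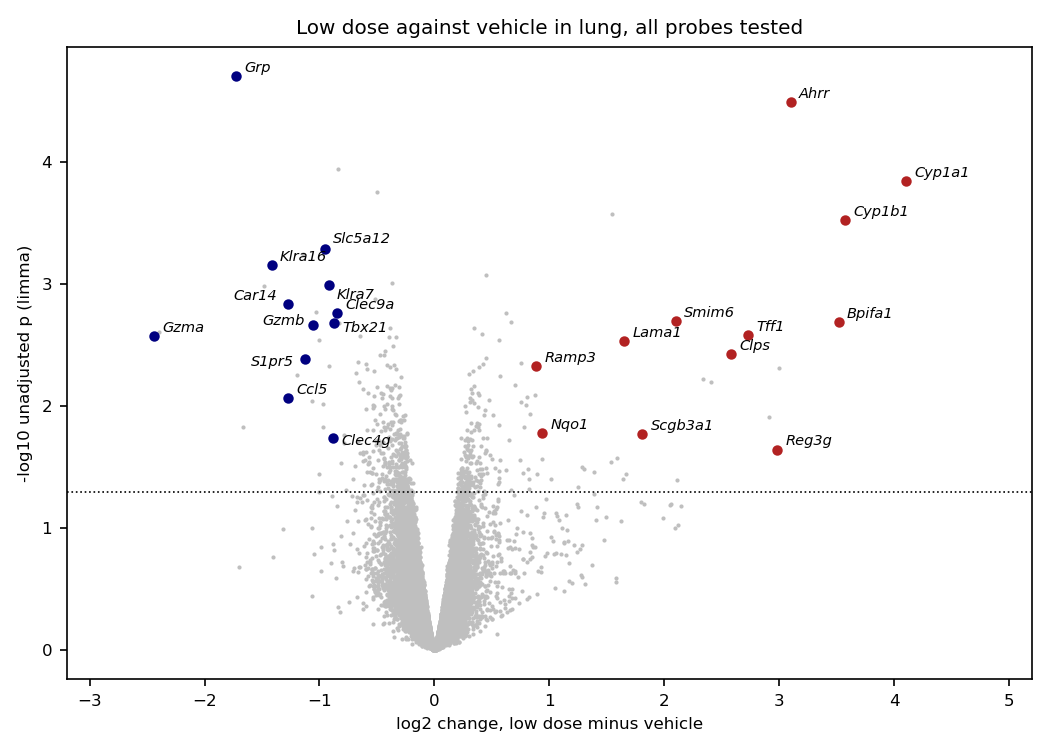
Change (x axis, log2, low dose minus vehicle) against the unadjusted limma p (y axis, minus log10) for each probe tested in lung; named points are the 12 genes with the highest changes (red) and the 12 with the lowest (blue) that were taken by the naming rule, and the dotted line marks the unadjusted limit of 0.05. Cyp1a1, Cyp1b1 and Ahrr lie apart at the upper right, and Grp and Gzma at the left, but no probe passed the adjusted threshold.

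Cyp1a1, Cyp1b1 and Ahrr were among the 4 genes with the highest changes that the naming rule took. Cyp1a1 had log2 ratios of 3.96, 9.28 and 7.10 in low-dose mice 7, 8 and 9, against 3.29, 2.35, 2.09 and 2.96 in vehicle mice 1 to 4. Mouse 7 lay 0.67 above the highest vehicle mouse, while mouse 8 reached the level of the high-dose group. The group means were 6.78 ± 2.67 and 2.67 ± 0.55 (SD), a change of 4.11 (SE 0.80, unadjusted p = 1.42e-04 and adjusted p = 1 by limma) or 17.2-fold. The change was past the threshold when low-dose mouse 7 was left out (5.52, adjusted p = 9.00e-04 by limma), and without mouse 8 it was 2.86. With the scanner software's log ratios it was 2.58. Within slides, the low-dose mouse exceeded the vehicle mouse of the same slide by 0.67 (mice 7 and 1), 6.93 (mice 8 and 2) and 4.14 (mice 9 and 4).

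Cyp1b1, which oxidises polycyclic aromatic hydrocarbons to reactive intermediates, had log2 ratios of −0.26, 4.04 and 0.94 in low-dose mice 7, 8 and 9. The vehicle mice had −1.93, −2.64, −2.01 and −1.42. The order of the 3 low-dose mice was that of Cyp1a1, and the change was 3.57 (SE 0.76, unadjusted p = 2.96e-04 by limma), or 11.9-fold, and 2.34 without mouse 8. Ahrr, the receptor's repressor, had log2 ratios of 1.34, 4.27 and 1.77 in mice 7, 8 and 9 and of −0.65, −0.74, −0.93 and −0.25 in the vehicle mice. Its probe was not well above background on any vehicle array and was so on each low-dose array, so that its fold is a bound of at least 7.70-fold (lung channel after loess and quantile scaling of intensity, open to dye bias; adjusted p = 0.52 by limma). With the scanner software's log ratios, which subtract background, its adjusted p was 0.038 by limma; no size is given for it there, since the vehicle side is at background. A second Ahrr probe was well above background on 0 of 4 vehicle and 1 of 3 low-dose arrays, so no change is given for it.

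Nqo1, a quinone reductase that is controlled by both AhR and Nrf2, had log2 ratios of −0.64, 0.26 and −0.70 in low-dose mice 7, 8 and 9. The vehicle mice lay lower, at −1.11, −1.31, −1.69 and −1.08, and the change was 0.94 (SE 0.35, unadjusted p = 0.017 by limma), or 1.92-fold. Ugt1a6b, a glucuronosyltransferase, had 0.24, 0.10 and −0.01 against −0.18, −0.79, −0.53 and −0.31, a change of 0.56 (SE 0.25, unadjusted p = 0.039 by limma). A second Ugt1a6b probe, well above background on every array of both groups, had a smaller change of 0.24 (SE 0.13, unadjusted p = 0.093 by limma). For Ugt1a6b the low-dose mice were close together and mouse 7 was the highest, unlike Cyp1a1. Probes of the Ugt1a6 genes and of the Gsta genes may detect more than 1 member of their families, since these members are alike in sequence.

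Proximal promoters of Cyp1a1, Cyp1b1, Ahrr and Nqo1, the AhR targets among the 12 highest genes, are shown to place the element that AhR binds. Each runs from 250 bases before to 50 bases after the start of the gene (RefSeq, GRCm38.p6), 5′ to 3′ on the gene's strand, in lower case, with each GCGTG on either strand (CACGC on the strand shown) in capitals.
Cyp1a1, chr9:57697363-57697662, plus strand: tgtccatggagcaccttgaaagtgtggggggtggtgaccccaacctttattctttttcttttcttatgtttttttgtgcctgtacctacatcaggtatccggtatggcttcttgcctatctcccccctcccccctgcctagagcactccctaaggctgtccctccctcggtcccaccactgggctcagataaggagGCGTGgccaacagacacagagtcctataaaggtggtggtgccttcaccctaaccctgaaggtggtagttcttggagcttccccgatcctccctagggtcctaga
Cyp1b1, chr17:79715012-79715311, minus strand: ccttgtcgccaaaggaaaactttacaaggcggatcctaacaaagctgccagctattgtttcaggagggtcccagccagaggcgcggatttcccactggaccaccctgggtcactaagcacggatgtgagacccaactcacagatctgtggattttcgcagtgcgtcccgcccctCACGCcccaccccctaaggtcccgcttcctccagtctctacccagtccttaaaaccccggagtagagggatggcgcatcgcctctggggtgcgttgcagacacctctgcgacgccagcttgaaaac
Ahrr, chr13:74292282-74292581, minus strand: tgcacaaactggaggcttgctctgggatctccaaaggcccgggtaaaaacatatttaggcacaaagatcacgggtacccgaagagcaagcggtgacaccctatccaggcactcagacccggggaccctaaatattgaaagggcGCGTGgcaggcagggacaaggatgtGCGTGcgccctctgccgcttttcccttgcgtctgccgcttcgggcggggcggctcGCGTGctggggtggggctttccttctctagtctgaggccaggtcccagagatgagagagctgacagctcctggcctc
Nqo1, chr8:107403156-107403455, minus strand: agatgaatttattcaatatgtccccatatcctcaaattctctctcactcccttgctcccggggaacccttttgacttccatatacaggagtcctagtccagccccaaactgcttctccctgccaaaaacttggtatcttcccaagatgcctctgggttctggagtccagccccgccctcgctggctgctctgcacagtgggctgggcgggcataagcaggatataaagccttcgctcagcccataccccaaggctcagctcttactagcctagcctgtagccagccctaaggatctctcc
The Ahrr window held 3 cores, which begin at positions −107, −82 and −27 from the start of the gene. The Cyp1a1 window held 1, at position −54, the Cyp1b1 window 1, on the other strand, at position −76, and the Nqo1 window 0. Of all 32851 promoter windows of this length, 32.4% held at least 1 GCGTG on either strand and 11.1% held 2 or more. Of the 15 genes of the AhR target list with a window, 12 held at least 1. The longer form TNGCGTG, which overlaps the core by construction, occurred in 5.1% of all windows and in 3 of the 15 windows of the list, those of Ahrr, Adh7 and Gsta2. These matches describe letters in short windows; enhancers farther upstream were not read here.

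**Figure D2:**
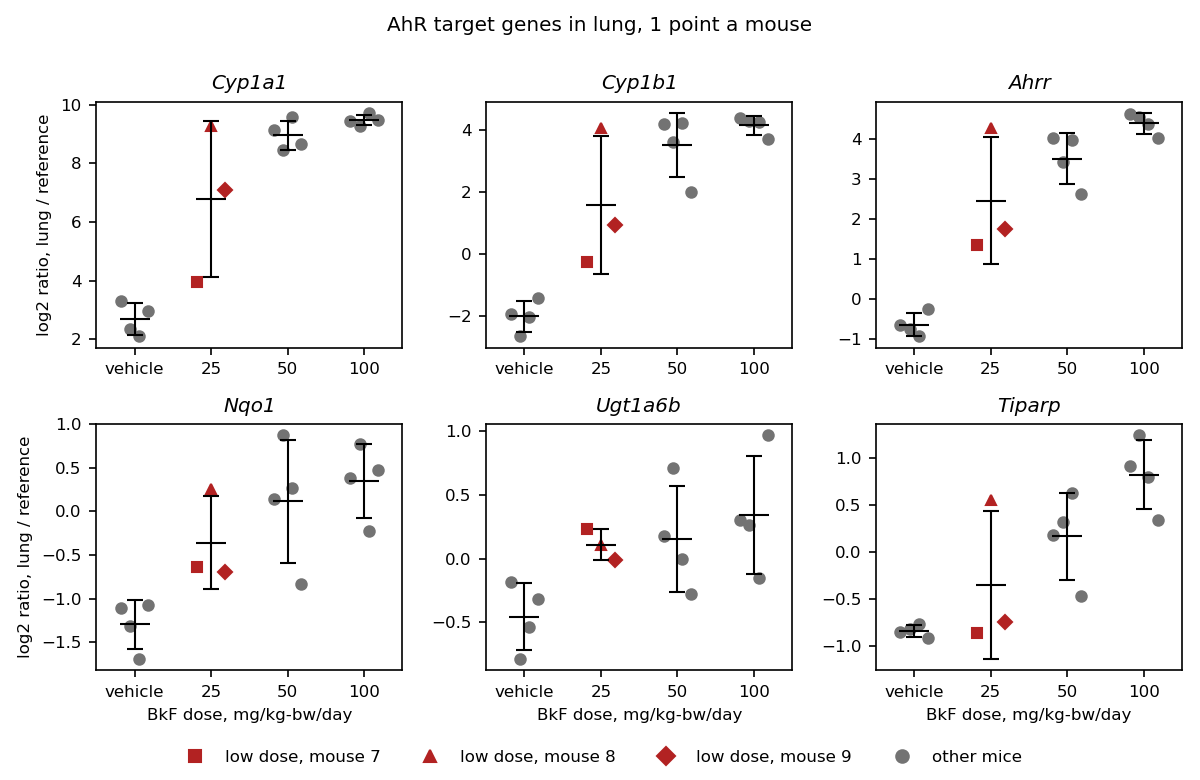
Log2 ratio of lung over reference (y axis) for 6 AhR target genes in each mouse, by BkF dose (x axis, mg/kg-bw/day); red symbols are the 3 low-dose mice, grey points the other mice, and bars are means ± SD. For Cyp1a1, Cyp1b1 and Ahrr, low-dose mouse 8 (9.28, 4.04 and 4.27) lies at the level of the higher doses while mouse 7 (3.96, −0.26 and 1.34) lies nearest to vehicle.

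The list of AhR targets held 18 genes, of which 16 were tested; the probes of Cyp1a2 and Fgf21 were well above background on too few lung arrays. Of these 16 genes, 14 were higher and 2 lower in the low-dose mice, with a median change of 0.47, against −0.01 for all probes; with median centring 12 were higher, with a median of 0.29. The 5 genes at an unadjusted p under 0.05 on their brightest probe were Cyp1a1, Cyp1b1, Ahrr, Nqo1 and Ugt1a6b, all higher. All low-dose values lay above all vehicle values for 6 genes, where they did for 1.73% of all probes. The list was written with earlier results of these data known, so its count is a description. The mean log2 ratio over the list was 0.75, 1.31 and 0.57 in low-dose mice 7, 8 and 9 and lay between −0.31 and 0.02 in the vehicle mice.

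The members of the list did not share 1 order of mice. Tiparp, an ADP-ribosyltransferase that acts back on the receptor, had log2 ratios of −0.87, 0.55 and −0.74 in mice 7, 8 and 9, so that mouse 7 lay within the vehicle range of −0.92 to −0.77, mouse 9 at its upper edge and mouse 8 clearly above it. Gsta1, a glutathione transferase, had 2.28 in mouse 7 but −0.90 and −0.58 in mice 8 and 9, against −1.52 to −0.58 in the vehicle mice, and its change was 1.24 with mouse 7 and 0.24 without. Gsta2 had 2.61, 0.69 and 0.25, and Aldh3a1, an aldehyde dehydrogenase, had 1.42, 0.72 and 0.56 in the same mice. Mouse 7 was thus highest for Gsta1, Gsta2 and Aldh3a1 and lowest for Cyp1a1, Cyp1b1 and Ahrr. The remaining members had changes between −0.24 (Lpcat2, a phospholipid acyltransferase) and 0.28 (Ugt1a6a), with Selenbp1 at 0.17. Adh7, an alcohol dehydrogenase, was not well above background on any vehicle array and was so on 2 of 3 low-dose arrays, so no size is given for it. Its differences within slides were 0.12 (mice 7 and 1), 0.39 (mice 8 and 2) and −0.01 (mice 9 and 4). For Slc7a5 (0.10), Htatip2 (0.05) and Scin (−0.03) the sign turned under some settings.

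The receptor and its partner Arnt had small changes. Of 9 genes of the AhR complex, 8 were tested, 3 higher and 5 lower, with a median change of −0.12 (with median centring, 0 of 8 higher) and 0 at an unadjusted p under 0.05. Ahr itself had a change of −0.21 (SE 0.32) and Arnt of 0.12. Within slides, complex member Hsp90aa1 differed by 0.57 (mice 7 and 1), −2.07 (mice 8 and 2) and 0.41 (mice 9 and 4). For Hsp90ab1 these differences were 0.31, −1.22 and 0.49. Among 25 tested phase II conjugating enzymes, 22 were higher with a median of 0.17, and 1, Gstp2 (0.34), had an unadjusted limma p under 0.05; with median centring in place of loess, 13 of the 25 were higher. Of 23 tested genes of Nrf2 and redox defence, 18 were higher with a median of 0.07 (8 of 23 with median centring), and 1, Me1 (0.42, malic enzyme, a source of NADPH), had an unadjusted p under 0.05. Ces2c (0.62), a carboxylesterase, was the only one of 7 tested carboxylesterases at this p. A second Ces2c probe had a change of 0.52 (unadjusted p = 0.094 by limma), and within slides mouse 7 had the largest difference (1.25, against 0.36 and 0.51 in mice 8 and 9).

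Low-dose mouse 8 also stood out for Cyp1a1 in other organs. In liver, Cyp1a1 had a log2 ratio of 4.61 in mouse 8 and of −0.02 in mouse 9, while the 4 vehicle livers lay between −0.09 and 0.23; no liver of low-dose mouse 7 was analysed here. In forestomach, the values were 0.12, 1.93 and 0.13 in mice 7, 8 and 9 and ran from −0.39 to 0.60 in the vehicle mice. Mouse 8 was the only low-dose mouse whose Cyp1a1 probe was well above background in these organs. Cyp1b1 in liver had −1.23 in mouse 8 and −2.47 in mouse 9, against −2.78 to −2.65 in vehicle. Ahrr in liver was higher in mouse 9 (0.11) than in mouse 8 (−0.03), with the vehicle livers at −0.69 to −0.35 and not well above background. These organs were normalised separately from lung, so levels are set side by side within an organ only, and no test was made.

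**Figure D3:**
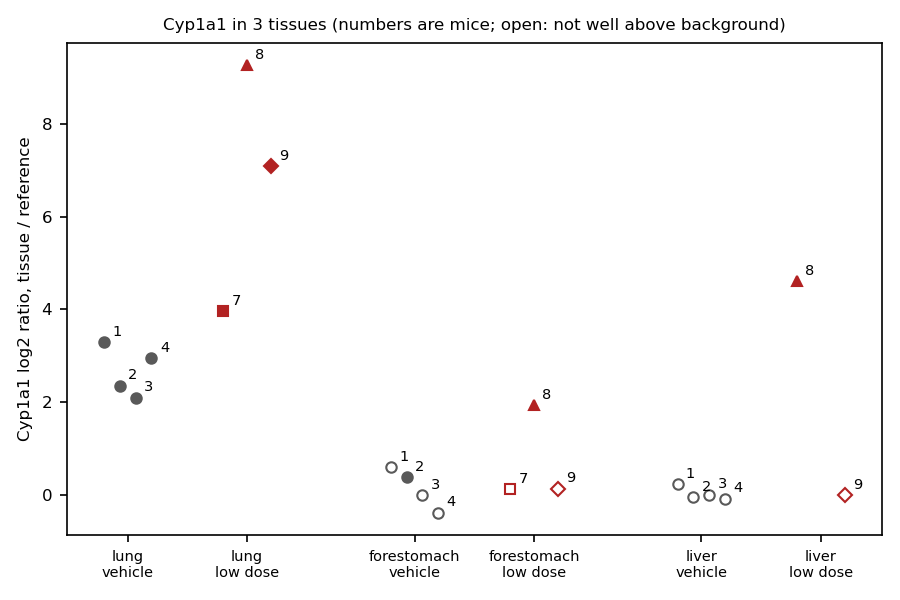
Cyp1a1 log2 ratio of tissue over reference (y axis) in lung, forestomach and liver of vehicle and low-dose mice; numbers are mice, and open symbols mark arrays on which the probe was not well above background. Low-dose mouse 8 is the highest mouse in each tissue, at 9.28 in lung, 1.93 in forestomach and 4.61 in liver.

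Which genes set the low dose apart from the next doses was tested without the vehicle arrays in the difference. The medium dose differed from the low dose at 0 probes (0%) and the high dose at 0 probes (0%) past the threshold of adjusted p and fold (limma), while 563 and 950 probes had an unadjusted p under 0.05. Cyp1a1 was 8.96 ± 0.50 (SD, n = 4) at the medium dose and 9.48 ± 0.18 (SD, n = 4) at the high dose, 2.18 (SE 0.80) and 2.70 (SE 0.80) above the low-dose mean. Ahrr was 1.94 (SE 0.52) and Tiparp 1.18 (SE 0.31) higher at the high dose than at the low dose. When low-dose mouse 8 was left out, Ahrr (2.84, adjusted p = 0.023 by limma) and Tiparp (1.84, adjusted p = 0.041 by limma) passed the threshold for high against low dose. The SD of Cyp1a1 was 2.67 among the low-dose mice and at most 0.55 in the other groups, and the spread of the 3 low-dose mice thus covered most of the distance from vehicle to high dose.

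A second group of higher genes encodes secreted products of airway, stomach or pancreas epithelium. Bpifa1, an antimicrobial surfactant protein of the large airways, had log2 ratios of 6.57, 4.74 and 4.32 in low-dose mice 7, 8 and 9 and of 2.71, 1.87, 1.88 and 0.31 in the vehicle mice, a change of 3.52 (SE 0.94, unadjusted p = 2.05e-03 by limma). Reg3g, an antibacterial lectin, had 6.38, 2.61 and 3.07 against 1.45, 1.6, 1.07 and 0.04, a change of 2.98 (SE 1.17, unadjusted p = 0.023 by limma). Scgb3a1, a secretoglobin, had 5.46, 3.97 and 3.96 against 3.82, 3.06, 2.57 and 1.17, a change of 1.81 (SE 0.67, unadjusted p = 0.017 by limma). In all of these genes mouse 7 was the highest and vehicle mouse 4 the lowest. The sizes depended on the scaling: with the scanner software's log ratios the changes were 1.15 for Bpifa1, 2.97 for Reg3g and 0.54 for Scgb3a1, and with median centring they were 1.92, 1.96 and 0.66. Without mouse 7 the change of Reg3g was 1.8.

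Tff1, a trefoil peptide of mucous cells, had log2 ratios of 5.47, 3.65 and 1.58 in low-dose mice 7, 8 and 9 and of at most 1.53 in the vehicle mice. Clps, the colipase of pancreatic juice, had 5.61, 2.34 and 0.57 against 0.22 to 0.31. For both genes mouse 9 lay close to the highest vehicle mouse, and without mouse 7 the changes were 1.78 for Tff1 and 1.19 for Clps. A second Tff1 probe had a change of 2.33. A second Clps probe was not well above background on any vehicle array and was so on 2 of 3 low-dose arrays, so no change is given for it. With median centring the change of Tff1 was 1.53. Both had lower means at the higher doses: the high-dose mean of Tff1 was 0.70 ± 0.97 (SD, n = 4) and that of Clps 0.39 ± 0.19 (SD, n = 4). The high-dose minus low-dose difference was −2.87 (SE 0.75) for Tff1 and −2.45 (SE 0.75) for Clps, neither past the adjusted threshold.

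Because Tff1 and Clps are also products of the digestive tract, 11 markers of the stomach lining were read, a list chosen after values were seen. Of these, 8 were tested and 8 had a higher mean, among them Tff1, which prompted the list, and genes that passed the filter on dim probes mainly through arrays where they are high, so no count over the list is read. Beside Tff1, those with an unadjusted limma p under 0.05 were Gkn2 (gastrokine), Cblif (gastric intrinsic factor) and Pgc (progastricsin). Gkn2 had log2 ratios of 6.66, 2.69 and 0.66 in mice 7, 8 and 9 against 0.18 to 0.76 in the vehicle mice. Cblif had 4.40, 0.91 and 0.32 against 0.06 to 0.48, and Pgc had 3.42, 0.85 and −0.12 against −0.05 to 0.17. The groups overlapped for Gkn2, Cblif and Pgc, with mouse 7 highest and mouse 9 within or under the vehicle range, and the 3 probes were each well above background on 1 of 4 vehicle arrays. The part of stomach RNA in the changes of Tff1 and Clps was not tested.

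Of the 11 club and secretory markers, 10 were tested: 5 were higher and 5 lower, with a median change of 0.11 (−0.04 with median centring), and 3 were higher at an unadjusted p under 0.05 (Bpifa1, Reg3g and Scgb3a1). All 3 also passed 1.5-fold; 2 members passed both limits with median centring and 0 with the scanner software's log ratios. The markers of bronchiolar club cells had small changes, −0.08 for Scgb1a1 and −0.06 for Cyp2f2, while the mucin Muc5b had 1.17 (SE 0.86). The mean log2 ratio over the list was 6.10, 4.82 and 4.56 in low-dose mice 7, 8 and 9 and 3.65 to 4.77 in the vehicle mice. In vehicle mouse 4, the lowest, 8 of the 10 markers were well above background, against all 10 on each other array of the 2 groups.

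The genes that were lower included products of natural killer (NK) cells and cytotoxic lymphocytes. NK cells are circulating lymphocytes, abundant in mouse lung, that kill target cells with perforin and granzymes. Gzma, granzyme A, had log2 ratios of 2.50, 3.53 and 2.15 in low-dose mice 7, 8 and 9 against 5.51, 4.75, 5.73 and 4.68 in the vehicle mice, a change of −2.44 (SE 0.68, unadjusted p = 2.67e-03 by limma) or 5.43-fold lower. The highest low-dose mouse lay more than 1 log2 unit under the lowest vehicle mouse. Gzmb, granzyme B, had 0.55, 1.07 and 0.53 against 1.75, 1.67, 2.34 and 1.34, a change of −1.06 (SE 0.28, unadjusted p = 2.17e-03 by limma). Prf1, perforin, had −0.64, −0.30 and −0.37 against −0.09, −0.07, 0.45 and 0.03, a change of −0.52 (SE 0.13, unadjusted p = 1.32e-03 by limma).

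Regulators and surface receptors of the same cells were also among the 12 lowest. Tbx21, the transcription factor T-bet, had log2 ratios of 0.49, 0.95 and 0.39 in mice 7, 8 and 9 against 1.41, 1.37, 2.17 and 0.98. S1pr5, a sphingosine phosphate receptor that guides NK cells out of tissues, had 0.28, 0.25 and 0.26 against 1.49, 1.14, 2.08 and 0.82, a narrow band of low-dose values under all vehicle values. Well above background in the low-dose group were 2 of 3 arrays for Tbx21 and 1 of 3 for S1pr5. With the scanner software's log ratios the changes of Tbx21, S1pr5 and Klra7 were −1.84, −1.9 and −2.02, against −0.88, −1.12 and −0.92 as reported, and with median centring that of Gzmb was −0.69. The chemokine Ccl5 had −1.62, −0.63 and −1.29 against 0.17, −0.11, 0.44 and −0.16. Probes named for the NK receptor genes Klra16 (−1.42) and Klra7 (−0.92) were lower in all 3 low-dose mice, but members of this multigene family are near-identical, the Klra7 probe was well above background on 1 of 3 low-dose arrays, and other probes of these names were so on at most 1, so no change is given for them.

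Of the 21 T and NK cell markers, 20 were tested, 6 were higher and 14 lower, with a median change of −0.13 (with median centring, 1 higher and 19 lower). The 6 at an unadjusted p under 0.05 were Gzma, Gzmb, Prf1, Nkg7 (−0.33), Klrd1 (−0.77, well above background on 2 of 3 low-dose arrays) and Ncr1 (−0.79, on 1 of 3), all lower, where 1.08% of all probes were. A second Nkg7 probe had a change of −0.76 (unadjusted p = 0.087 by limma). The T cell receptor chains and co-receptors of the same list had changes of 0.06 (Cd3e), 0.02 (Cd3d), −0.02 (Cd3g), −0.09 (Cd4) and −0.12 (Cd8a), with unadjusted limma p-values between 0.45 and 0.95; this split within the list was made after the values were seen. Klrb1c (−0.67, a surface receptor) and Eomes (−0.49, a transcription factor), also of NK cells, had changes on the lower side with unadjusted limma p-values above 0.05. In whole lung RNA, fewer cells of a type and less RNA per cell cannot be told apart. The medium-dose and high-dose means of Gzma, 2.85 ± 1.47 and 3.12 ± 0.98 (SD, n = 4 each), lay near the low-dose mean of 2.73 ± 0.72 (SD, n = 3), and their differences from the low dose were 0.12 (SE 0.68) and 0.39 (SE 0.68).

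**Figure D4:**
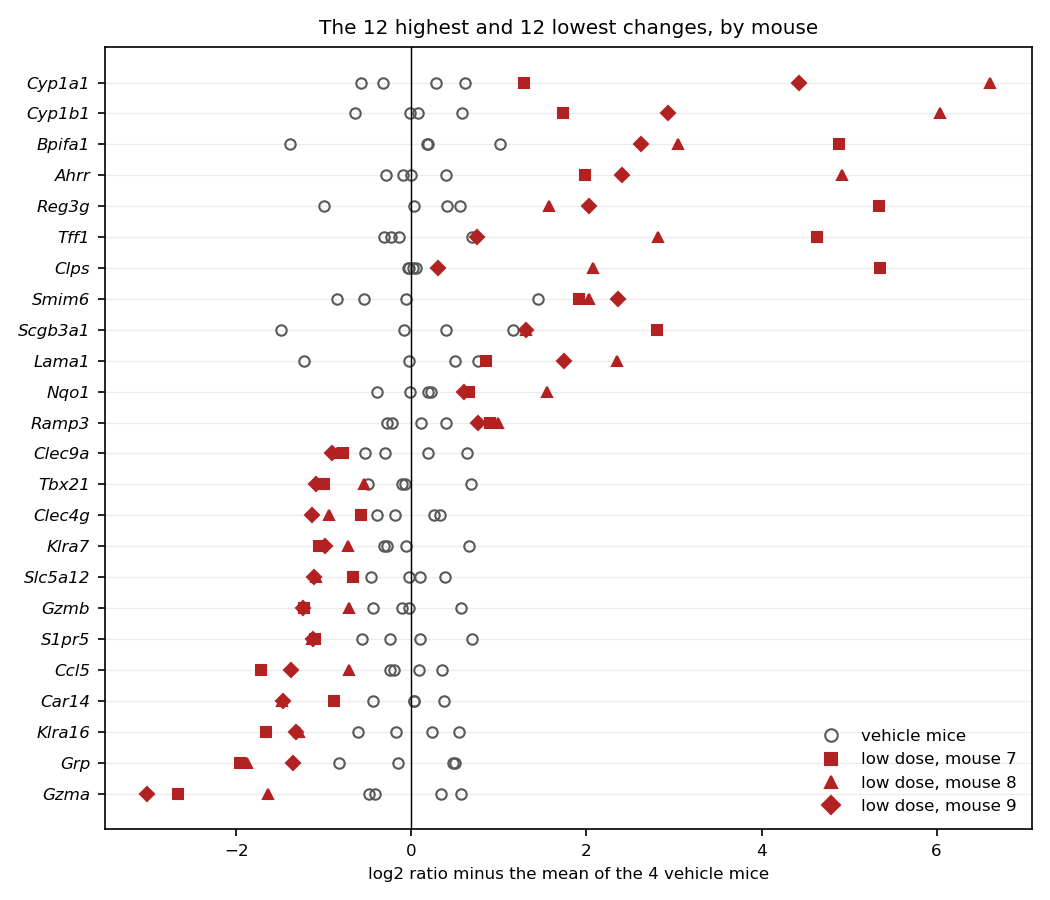
Log2 ratio minus the mean of the 4 vehicle mice (x axis) for the 12 genes with the highest and the 12 with the lowest changes (y axis), with 1 open circle a vehicle mouse and 1 red symbol a low-dose mouse. The 3 low-dose mice lie on one side of the 4 vehicle mice in every row, which the naming rule required; mouse 8 is highest for Cyp1a1, Cyp1b1 and Ahrr, and mouse 7 for Bpifa1, Reg3g, Tff1 and Clps.

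Grp, gastrin-releasing peptide, a product of pulmonary neuroendocrine cells, had the lowest unadjusted p of all probes. Its log2 ratios were 0.33, 0.41 and 0.93 in low-dose mice 7, 8 and 9 and 2.78, 2.13, 2.76 and 1.46 in the vehicle mice, with no overlap. The change was −1.73 (SE 0.28, unadjusted p = 1.95e-05 and adjusted p = 0.52 by limma), and it was past the threshold without vehicle mouse 4 (−2.0, adjusted p = 0.017 by limma) and with array weights (−1.93, adjusted p = 0.017 by limma). With the scanner software's log ratios the change was −3.27, and with median centring −1.15. Its probe was well above background on 4 of 4 vehicle arrays, 1 of 3 low-dose arrays and 1 of 4 arrays at each higher dose, so levels under the vehicle group lie mostly at background and their order is not read. The medium-dose and high-dose means, 0.36 ± 0.21 and 0.31 ± 0.31 (SD, n = 4 each), differed from the low-dose mean by −0.19 (SE 0.28) and −0.24 (SE 0.28). Of 13 tested neuroendocrine markers, 8 were higher and 5 lower (6 and 7 with median centring); Grp was the only one lower at an unadjusted p under 0.05, and Chga, chromogranin A, was higher (0.67) with 1.87 in mouse 7 and 0.42 and 0.19 in mice 8 and 9.

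Other lower genes were Car14, a membrane carbonic anhydrase, with log2 ratios of 1.57, 0.98 and 0.99 in low-dose mice 7, 8 and 9 against 2.02, 2.48, 2.83 and 2.49 in the vehicle mice (change −1.27, SE 0.33). The lactate transporter Slc5a12 had a change of −0.96 (SE 0.22) and a second probe of it −1.0, also well above background on 1 of 3 low-dose arrays. Clec9a, a lectin of cross-presenting dendritic cells, had −0.85, and Clec4g, another lectin, −0.88; low-dose arrays well above background were 1 of 3 for Slc5a12 and 2 of 3 for Clec9a. With the scanner software's log ratios the changes were −1.7 for Slc5a12 and −2.21 for Clec9a, and with median centring they were −0.58 and −0.52. Among the higher genes, Lama1, a laminin chain of basement membranes, had 3.5, 4.99 and 4.39 against 2.61, 3.14, 3.41 and 1.41 (change 1.65, SE 0.46, but 0.59 with the scanner software's log ratios and 0.83 with median centring), and its medium-dose and high-dose means were 4.86 and 4.64. Smim6, which encodes a small membrane protein, had 2.92, 3.03 and 3.37 against 0.95, 0.15, 0.47 and 2.45 (change 2.10, SE 0.56). Ramp3, a partner of the adrenomedullin receptor, had 0.68, 0.76 and 0.54 against −0.45, 0.17, −0.51 and −0.12 (change 0.88, SE 0.26).

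p53 responds to DNA damage, which reactive polycyclic aromatic hydrocarbon metabolites cause. Of 25 tested p53 targets, 18 were higher and 7 lower, with a median change of 0.05, but 6 were higher with median centring (median −0.08). Cdkn1a, the cell cycle inhibitor p21, had a change of −0.01 (SE 0.25), Mdm2, the ubiquitin ligase of p53, of −0.02 (SE 0.15) and Ccng1 of 0.05 (SE 0.28). Phlda3 (0.31) and Plk2 (0.40) were higher and Pmaip1 (−0.68, the pro-apoptotic protein Noxa) was lower at unadjusted limma p-values under 0.05. Pmaip1 had −0.42, −0.51 and −0.06 in mice 7, 8 and 9 and 0.19 to 0.52 in the vehicle mice. Of 33 tested genes of nucleotide excision repair and bypass synthesis, 0 had an unadjusted p under 0.05 in either direction (median −0.06).

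In the circadian clock list, 7 of 21 genes were higher and 14 lower, with a median change of −0.09. At an unadjusted p under 0.05, 3 were higher, namely Dbp (1.31), Nr1d1 (0.78) and Nr1d2 (0.65), and 0 were lower. These 3 also passed 1.5-fold, where 0 did with median centring, and the change of Dbp was 0.85 without mouse 8. These genes are transcribed under the clock activators Clock and Arntl. Dbp had 0.84, 1.52 and −0.51 in mice 7, 8 and 9 against −0.03, −1.62, −1.43 and 0.33, so the groups overlapped. The time of day at which each mouse was killed is not given in the sources used here. Of 24 tested cholesterol synthesis genes, 16 were higher and 8 lower (8 and 16 with median centring); Sc5d (0.43) was higher and Lss (−0.28) was lower at unadjusted p-values under 0.05. Of 25 tested proliferation genes, 24 were higher (median 0.17, Rrm2 at 0.50 with an unadjusted p under 0.05), but 13 of 25 were higher with median centring in place of loess. Of 26 tested interferon-stimulated genes 20 were lower (median −0.13), and 0 of them had an unadjusted p under 0.05.

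Markers of other tissues and cells were read in the same lungs. All 13 heart muscle markers were higher in the low-dose lungs (12 of 13 with median centring), with a median change of 1.80, and 1 of them, Sln (2.91), had an unadjusted limma p under 0.05. The mean log2 ratio over the heart list was 3.5, 2.36 and 1.90 in low-dose mice 7, 8 and 9 and 0.57, 2.68, 0.01 and 1.01 in vehicle mice 1 to 4, so the groups overlapped. Sln itself, a regulator of the muscle calcium pump, had 6.19, 5.29 and 4.24 in mice 7, 8 and 9 and 1.38, 5.30, 0.12 and 2.53 in the vehicle mice. Of the 13 heart genes, 9 to 13 were well above background on a vehicle array and 11 to 13 on a low-dose array. White fat markers were higher for 9 of 10 (median 0.81), with list means of 3.28, 1.72 and 0.81 in mice 7, 8 and 9 and 0.54 to 1.42 in the vehicle mice. Neutrophil markers were higher for 13 of 14 (median 0.38, or 0.16 with median centring), with list means of 2.03, 1.56 and 1.40 against 0.99 to 1.28, and Ltf (1.25), lactoferrin, was the only one at an unadjusted p under 0.05. The change of Ltf was 0.42 with the scanner software's log ratios, 0.7 with median centring and 0.54 without mouse 7. Low-dose mouse 7, the highest for the secreted airway genes, was also the highest for the heart, fat and neutrophil lists. Over all 42 lists, the low-dose list means lay above all vehicle list means for the AhR target, neutrophil and Nrf2 lists. They lay below them for the alveolar type I and inflammation lists. Among single probes, 1.73% lay above and 2.35% below in this way. The gaps were narrow for Nrf2 (0.66 against 0.63 in vehicle) and inflammation (−0.50 against −0.48 in vehicle). In the inflammation list 10 of 23 genes were higher, and with median centring 8 of 23 Nrf2 genes were higher. The part of heart, fat and neutrophil cells in the changes above was not tested.

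Alveolar type I markers were lower for 8 of 9 (median −0.19), and the alveolar type II list had a median of −0.04 with 5 of 12 higher. Macrophage and monocyte markers were lower for 13 of 18 (median −0.21). None of these lists had a member at an unadjusted limma p under 0.05. Endothelial (13 tested, median −0.02), ciliated (14 tested, 0.02) and fibroblast (18 tested, −0.04) markers were likewise without a member at this p. With median centring these medians were −0.14, −0.08 and −0.17, and that of the alveolar type II list was −0.14 with 0 of 12 higher.

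**Figure D5:**
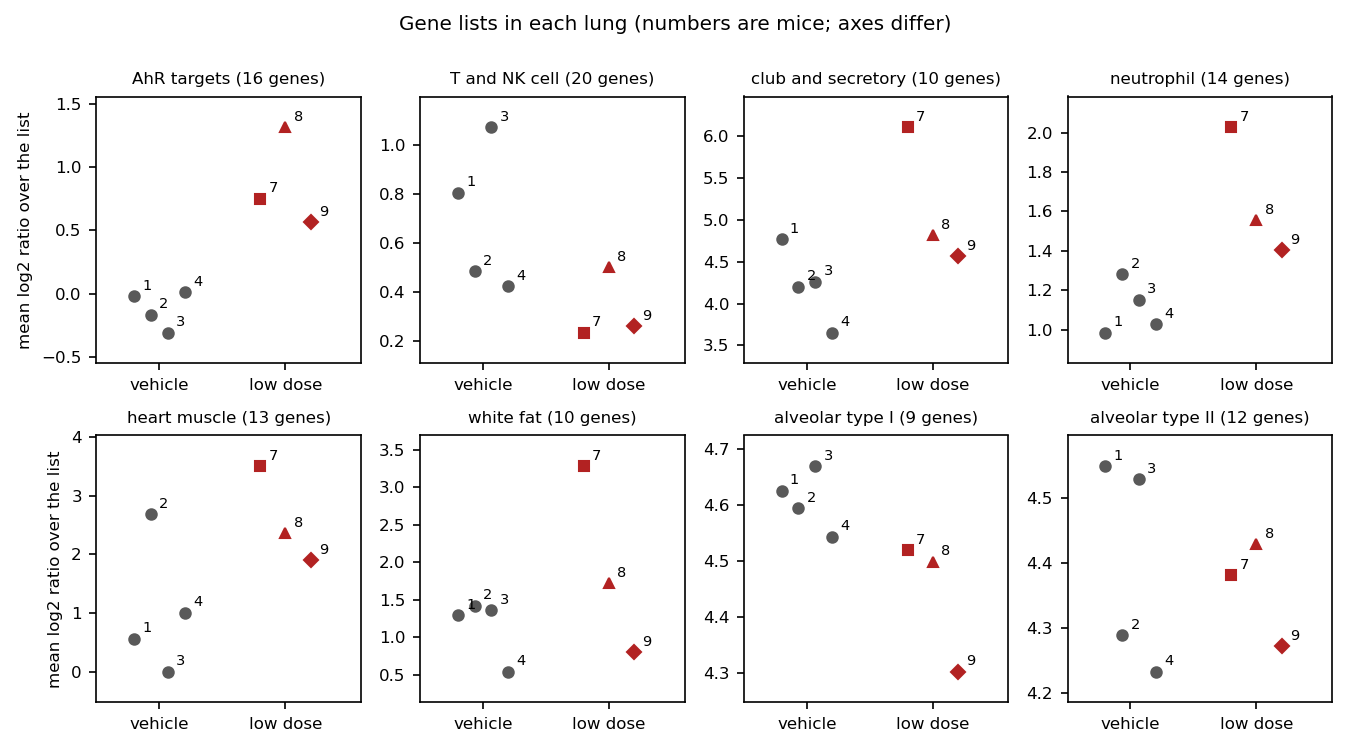
Mean log2 ratio over the tested members of 8 gene lists (y axis, scales differ) in each vehicle and low-dose lung; numbers are mice. The AhR target and neutrophil lists (low dose above vehicle) and the alveolar type I list (low dose below, 4.30 to 4.52 against 4.54 to 4.67) separate the groups; mouse 8 is highest for the AhR targets, while mouse 7 is highest for the secretory, neutrophil, heart muscle and white fat lists and the T and NK cell list overlaps between groups.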

How the data were processed

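Lung, liver and forestomach RNA of 15 mice was hybridised to 2-colour Agilent mouse arrays, with tissue RNA in Cy5, a reference pool in Cy3 and no dye swap. The authors deposited scanner files of spot intensities, extracted for lung with Feature Extraction 10.7.3.1 per the file headers. The same files hold the software's log10 ratios of red over green, which were background-subtracted and dye-normalised before they were deposited. A deposited table holds the authors' processed log2 ratios, LOWESS-normalised without background subtraction per the published methods. Set against the loess values below, its lung columns had slopes of 0.994 to 0.997 and correlations of 0.997 to 0.999, so they are on the log2 scale in the same direction, and their medians ran from −0.036 to −0.026.

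For the 15 lung arrays, the deposited median pixel intensities of each spot were taken without background subtraction, spots flagged as outliers and 3671 control spots were left out, and each array was normalised by loess in limma 3.58.1 (R 4.3.3). Spots of a probe were averaged, giving 55681 probes. The 32694 probes with a lung signal called well above background on 3 or more lung arrays were tested with lmFit and eBayes, all 4 doses in 1 fit, in place of the authors' MAANOVA. A probe was called at a Benjamini-Hochberg adjusted p of at most 0.05 and at least 1.5-fold. Of 33064 probes with a RefSeq accession, 26413 were named through RefSeq, and the brightest probe stood for a gene. Replicates are separate mice.

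The genes named were every called probe, the 12 highest and 12 lowest changes among genes with an unadjusted p under 0.05, no overlap between the groups and signal well above background on every array of the higher group, every measured AhR target, Cdkn1a, Mdm2 and Ccng1, and the members of each other list with an unadjusted p under 0.05, except for an item that is not reported here. Ahr, Arnt, Hsp90aa1, Hsp90ab1, Scgb1a1, Cyp2f2, Muc5b, the stomach markers, Klrb1c, Eomes and the T cell receptor genes were chosen after their values were seen. The 18 pathway lists and 24 cell type lists were chosen with earlier results of these data known. The fit was tested on simulated data. Alternatives were normexp background correction, the scanner software's log ratios, Aquantile scaling, median centring, the authors' table, other filters, the slide as a block, a fit on the 2 groups alone, array weights, an intensity trend and leaving out single arrays. Liver and forestomach arrays were normalised separately and used only for values of AhR genes in the same mice. Promoters are from RefSeq, GRCm38.p6.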

Additional observations from a re-analysis of the deposited data

Results flagged for a closer look

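In 11 of 222 groups of 4 mice (4.95%), counted over the 60 named genes in the vehicle, medium-dose and high-dose groups and the means of the 42 gene lists in the vehicle group, 1 mouse lay apart from the others by more than Dixon's critical value for 4 samples allows; chance gives about 1 in 20. None of these groups is the low-dose group, whose 3 mice are too few for this rule. Values are log2 ratios of lung over reference.

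High-dose mouse 20 had 5.41 for Reg3g, where the nearest of its group had 1.83, and −1.56 for Cdkn1a, where the nearest had −0.74. High-dose mouse 19 had 0.66 for S1pr5 (nearest 0.11), 0.07 for Ugt1a6a (nearest 0.48), 4.76 for Selenbp1 (nearest 5.29) and 0 for Pmaip1 (nearest −0.47). Medium-dose mouse 12 had −3.72 for Rrm2 (nearest −4.2).

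Among the vehicle mice, which enter the comparison with the low dose, mouse 3 had −0.31 for Cyp4a12b, a fatty acid hydroxylase, where the nearest had −0.13. Vehicle mouse 1 had a mean of −0.31 over the cholesterol synthesis list (nearest −0.45). Vehicle mouse 4, whose array was among the dimmest, had means of 0.55 over the Nrf2 and redox list (nearest 0.62) and 0.54 over the white fat list (nearest 1.29).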

How the results depend on the processing

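The count of called probes for low dose against vehicle was 0, and it was 1 with the scanner software's log ratios (Ahrr, adjusted p = 0.038 by limma) and 1 with array weights (Grp, −1.93, adjusted p = 0.017 by limma). Leaving out 1 mouse at a time gave 0 to 1 called probes: Cyp1a1 without low-dose mouse 7 (adjusted p = 9.00e-04 by limma) and Grp without vehicle mouse 4 (adjusted p = 0.017 by limma). Over all alternatives the adjusted p ranged from 9.00e-04 to 1 for Cyp1a1, from 0.038 to 1 for Ahrr and from 0.017 to 1 for Grp. For high against low dose, leaving out 1 mouse gave 0 to 2 called probes, both without low-dose mouse 8. The 96 probes at an unadjusted p under 0.05 and at least 1.5-fold became 541 with the scanner software's log ratios, 44 with median centring, 48 with probes well above background on all lung arrays and 187 with array weights, and 87 to 190 when 1 mouse was left out. The cause of these shifts was not tested. Median centring moved the median of all probes to −0.09. Blocking by slide gave 0 called probes and 123 at the unadjusted limits.

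Of 1196 alternative values of the 60 named genes, 27 had the opposite sign, all in 6 genes with changes near 0. With the slide as a block these were Scin (0.02), Slc7a5 (−0.05) and Htatip2 (0). With normexp Scin was 0.04. With the scanner software's log ratios Slc7a5 was −0.03, Cdkn1a 0.01 and Mdm2 0.02. With median centring Slc7a5 was −0.05, Htatip2 −0.03 and Ccng1 −0.09. With the authors' table Cdkn1a was 0.02. On another probe Slc7a5 was −0.02 and Cdkn1a 0.32. Leaving out 1 mouse gave −0.13 to 0.09 for Scin, −0.06 to 0.27 for Slc7a5, −0.03 to 0.20 for Htatip2, −0.10 to 0.16 for Cdkn1a, −0.10 to 0.19 for Ccng1 and −0.07 to 0.03 for Mdm2. An alternative chosen after seeing the data, without the array of high-dose mouse 20, gave 0 called probes and 103 at the unadjusted limits. No paired analysis was possible because no mouse number in the labels occurs in more than 1 dose group; arrays of the same slide were compared only by the slide block above and by their differences within slides. Signal limits the low genes: Ahrr was not well above background on any vehicle array.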
